A study of Homo sapiens with 6 samples.

Results

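Aminoacyl-tRNA synthetases are the enzymes that join each amino acid to its transfer RNA, the step that fixes the genetic code before a ribosome is reached. Human cells keep 2 sets of them, both encoded in the nucleus: a cytosolic set for the ribosomes of the cytoplasm, and a mitochondrial set, usually marked by the suffix 2 in the gene name, that is imported to serve the ribosomes inside mitochondria. Several cytosolic enzymes sit together in the multisynthetase complex, and many cytosolic synthetase genes are known targets of ATF4, the transcription factor that cells switch on when amino acids run short. The genes were chosen by symbol as 19 enzymes or subunits without the suffix and 16 with it, 35 of the 59715 gene IDs counted. All 35 were found, each under a single ID, and all 35 passed the filter on low counts that left 14543 genes for testing. The split by suffix places GARS1 and KARS1 with the cytosolic enzymes, although each of these genes is known to supply both compartments.

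The cells were HCT116, a long-established line from a human colorectal carcinoma, and poly(A) RNA was sequenced in 3 libraries labelled as MLL4 knockout (MLL4KO) and 3 labelled as wild type (MLL4WT). The labels name no treatment, and both kinds of cell were grown in the same medium. MLL4 is a methyltransferase of histone H3 lysine 4 whose gene is usually called KMT2D; the place of the deletion, the number of knockout clones and whether libraries came from separate cultures are not given in the sources used here, so p-values measure the spread between these libraries. Levels are CPM, a share of each library after scaling, and log2 fold changes are of MLL4KO over MLL4WT with their standard error. A gene is said to have risen or fallen where its adjusted p in the edgeR quasi-likelihood test, corrected over all 14543 genes, was under 0.05.

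Library totals ranged between 14775580 and 19736751 counts in MLL4KO and between 6829400 and 17828774 in MLL4WT, with MLL4WT replicate 1 the shallowest. Replicates of a genotype differed by more than sampling noise, and MLL4WT replicate 1 stood furthest from its group, with chi-square values, divided by their degrees of freedom, of 7.36 and 7.49 against the other MLL4WT libraries and 1.85 to 2.46 for the remaining pairs within a genotype. KMT2D was at 229.5, 243 and 225 CPM in MLL4KO libraries and 239.7, 230.5 and 234 CPM in MLL4WT libraries (log2 -0.01 ± 0.05, edgeR adjusted p = 0.832), so gene-level counts give no check of the labels. Of 7 markers of colorectal epithelium, KRT8, KRT18, KRT19, EPCAM and CDH1 were measured, LGALS4 was near 0 and CEACAM5 was at 0 in all libraries. Their summed level was 1053 to 1073 CPM in MLL4KO and 1575 to 1641 CPM in MLL4WT, and KRT8, KRT18, KRT19 and EPCAM fell. The summed level of 7 markers of leukocytes, endothelium and fibroblasts was 30.3 to 32.9 CPM in MLL4KO and 25.6 to 29.6 CPM in MLL4WT, none of them at 0 in all libraries. Most of that sum was COL1A1, a fibroblast collagen gene, which rose, at 27.3 ± 1.89 CPM in MLL4KO and 22.4 ± 0.677 CPM in MLL4WT (SD, n = 3 each; log2 0.28 ± 0.08, edgeR adjusted p = 0.0106), and of the other 6 markers 3 did not pass the test and 3 were too low to be tested. The part of these markers in the results was not tested.

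Many cytosolic synthetase genes are known to be induced by ATF4 through a short composite site, the C/EBP-ATF response element, and that sequence is shown first because it was more frequent in the promoters of the cytosolic set than in those of the mitochondrial set. The letters TGATGNAA were sought on both strands of the RefSeq promoter windows on GRCh38.p14, which reach from 250 bases before a gene's start to 50 bases after it and were found for 30 of the 35 genes. In the stretches below the match is in capitals and each line is read on the strand where it spells the motif.
AARS1, chr16:70289676-70289703, plus strand: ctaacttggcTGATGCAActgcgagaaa
CARS1, chr11:3057408-3057435, plus strand: tcctagaatcTGATGCAAccgccgcccc
GARS1, chr7:30594835-30594862, minus strand: gctcggagcaTGATGAAAtcgccgcgta
IARS1, chr9:92293693-92293720, plus strand: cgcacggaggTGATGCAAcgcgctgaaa
MARS1, chr12:57488054-57488081, minus strand: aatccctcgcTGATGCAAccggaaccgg
NARS1, chr18:57621805-57621832, minus strand: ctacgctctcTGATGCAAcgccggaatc
TARS1, chr5:33440957-33440984, minus strand: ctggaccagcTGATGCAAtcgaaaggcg
YARS2, chr12:32756077-32756104, minus strand: tccacactgcTGATGGAAaaattaagtt
The letters were present in 7 of 16 cytosolic promoters (43.8%) and in 1 of 14 mitochondrial ones (7.14%), where 4.46% of all 27305 promoters and 2.54% of the 10659 promoters of tested genes held them. All 7 cytosolic matches lay among the 10 promoters found of genes listed as ATF4 targets, and none among the other 6. A match is a description of the letters, not of binding.

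Both sets were mostly lower in MLL4KO, by small amounts. Of the 19 cytosolic genes 9 fell and 1 rose, with 9 that did not pass, and of the 16 mitochondrial genes 8 fell and 2 rose, with 6 that did not pass. Over both sets 48.6% fell and 8.57% rose, where 21.6% of all tested genes fell and 19.8% rose, 41.4% in either direction. Among the 10357 genes with a mean level at or above that of FARS2, the lowest member at 8.19 CPM, 26.3% fell and 21.2% rose, 47.5% in either direction. The libraries of the genotypes did not overlap in 21 members, 19 lower and 2 higher in MLL4KO, where among all tested genes 52.5% did not overlap, 26.6% lower and 25.9% higher. The median log2 fold change was -0.12 for the cytosolic genes, -0.16 for the mitochondrial genes and 0.00 over all tested genes, and 29 of the 35 members had a negative value. With libraries scaled by total counts, 3706 of all tested genes rose and 2394 fell, where 2885 rose and 3136 fell with the scaling used here, and 7 cytosolic and 6 mitochondrial members fell beside 16.5% of all genes, with 25.5% of all genes higher. The DESeq2 Wald test called 9 cytosolic and 5 mitochondrial members lower, where 15.9% of all genes were lower and 13.4% higher. No member changed 2-fold, and the members ranged between -0.51 (FARS2) and 0.27 (VARS2).

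Summed over the 19 cytosolic genes, the level was 3743, 3690.0 and 3781 CPM in MLL4KO libraries and 3907, 4204 and 4127 CPM in MLL4WT libraries. For the 16 mitochondrial genes it was 869.5, 863 and 868 CPM in MLL4KO libraries and 909.8, 936 and 929 CPM in MLL4WT libraries. With the scaling used here neither sum overlapped between genotypes, and the MLL4KO sums were 0.916 and 0.937 times the MLL4WT sums. The sums depend on that scaling, whose factors were 1.02 to 1.025 in MLL4KO and 0.972 to 0.987 in MLL4WT, which lowers MLL4KO levels against MLL4WT ones. With total counts the median log2 fold changes were smaller, at -0.06 for cytosolic and -0.10 for mitochondrial genes. The ratio of the cytosolic to the mitochondrial sum was 4.31 ± 0.0393 in MLL4KO and 4.41 ± 0.103 in MLL4WT (SD, n = 3 each), and its libraries overlapped. As shares of a library, these levels do not give transcripts per cell. In bulk RNA, a change within cells and a different mix of cells cannot be told apart.

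**Figure D1:**
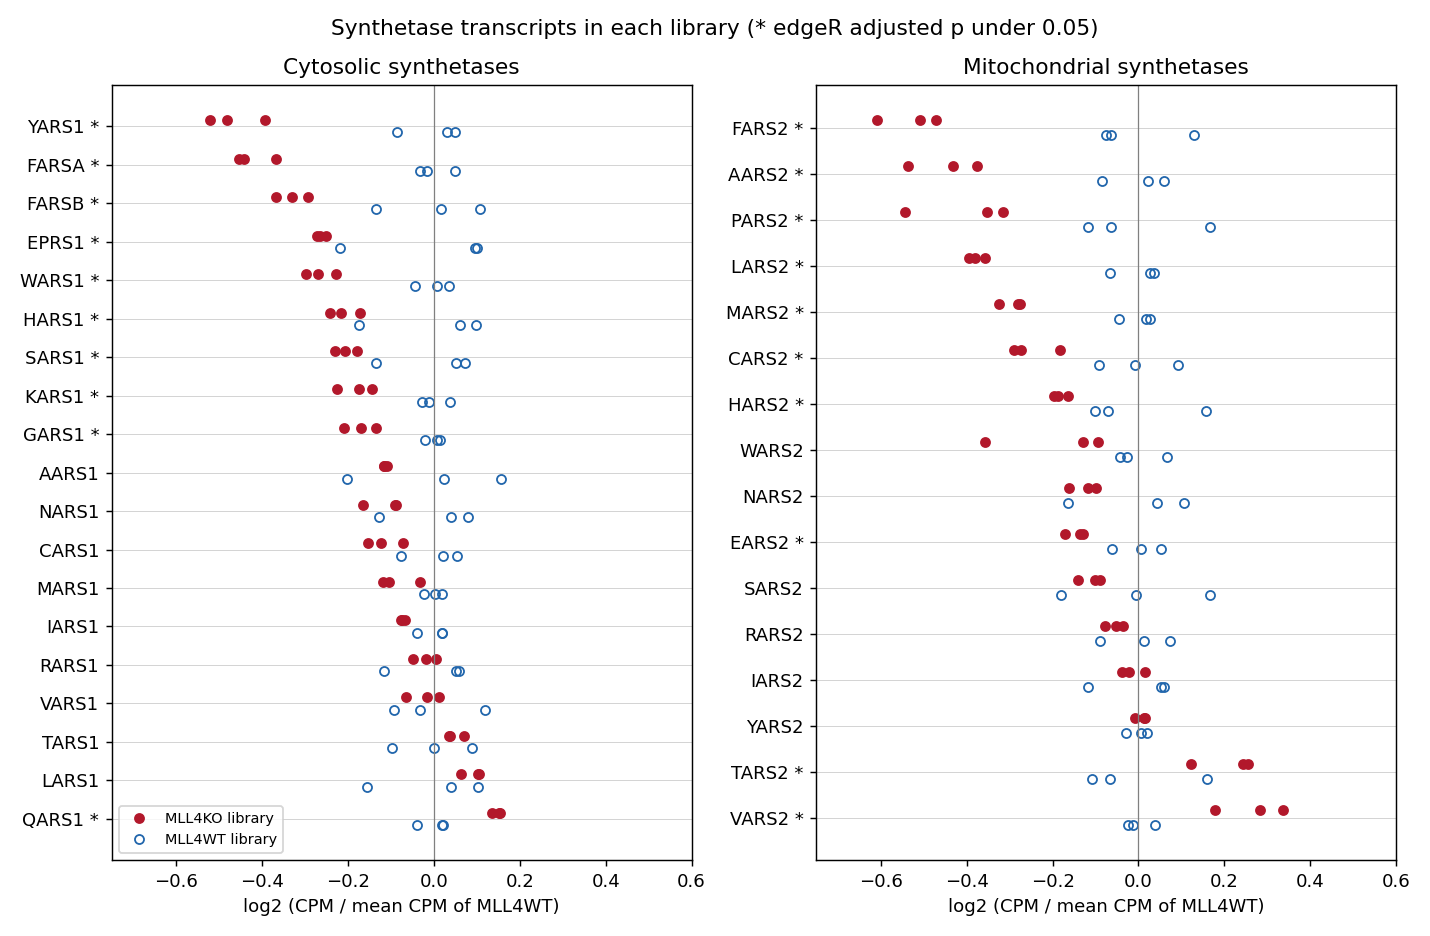
Level of each of the 35 synthetase transcripts in each library as log2 of its CPM over the mean CPM of MLL4WT, with cytosolic genes on the left and mitochondrial genes on the right; filled points are the 3 MLL4KO libraries, open points the 3 MLL4WT libraries, and an asterisk marks an adjusted p under 0.05. Most filled points lie left of 0 in both panels, with QARS1, TARS2 and VARS2 the called genes on the right.

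The counts depended on single libraries. Without MLL4KO replicate 2, 4 cytosolic and 5 mitochondrial genes fell, where 15.7% of all genes fell and 14.6% rose. Without MLL4KO replicate 3 it was 7 and 5, beside 16.3% of all genes lower and 15.1% higher, and without MLL4WT replicate 1 it was 13 and 9, beside 25.7% lower and 23.7% higher. MLL4WT replicate 1 was the lowest of the MLL4WT libraries in 20 members, 15 of them cytosolic, and in that library several cytosolic genes lay close to the MLL4KO values. Column names carry run codes: one holds MLL4KO replicate 1 and MLL4WT replicate 3, another MLL4KO replicates 2 and 3 and MLL4WT replicate 2, and MLL4WT replicate 1 is alone on a code of its own. All 20 called members kept their direction within each of the codes that hold both genotypes, and over all members 33 and 31 of the 35 did. These codes hold every library but MLL4WT replicate 1, so the agreement was largely built in and is not independent support. The share over all genes is not given here. With the run code as a term, 14 cytosolic and 10 mitochondrial genes fell, where 27.4% of all genes fell and 23.9% rose.

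The cytosolic phenylalanyl-tRNA synthetase fell in both of its subunits. FARSA (chromosome 19, 12922479 to 12934037) encodes the catalytic alpha subunit and FARSB (chromosome 2, 222570536 to 222656337) the beta subunit of the same tetramer. FARSA was at 182, 172 and 173 CPM in MLL4KO libraries and 229.7, 243 and 232 CPM in MLL4WT libraries, 1.34-fold lower (log2 -0.42 ± 0.05, edgeR adjusted p = 2.13e-05). FARSB was at 113, 115 and 118 CPM in MLL4KO libraries and 132, 156 and 147 CPM in MLL4WT libraries, 1.26-fold lower (log2 -0.34 ± 0.06, edgeR adjusted p = 0.000724). Neither gene's groups overlapped, and within the run codes the log2 differences were -0.35 and -0.50 for FARSA and -0.38 and -0.42 for FARSB. The ratio of FARSA to FARSB counts was 1.52 ± 0.0852 in MLL4KO and 1.63 ± 0.0986 in MLL4WT (SD, n = 3 each), with an exact two-sided permutation p of 0.30 where 0.10 is the smallest that 3 against 3 allows.

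The mitochondrial enzyme for the same amino acid, FARS2 (chromosome 6, 5261044 to 5829192), works as a single chain. It was at 6.81, 6.35 and 6.98 CPM in MLL4KO libraries and 10.6, 9.26 and 9.19 CPM in MLL4WT libraries, 1.42-fold lower (log2 -0.51 ± 0.12, edgeR adjusted p = 0.00479). All 3 genes for phenylalanine were therefore lower in every MLL4KO library than in any MLL4WT library. The same held for 54.3% of the 35 members and 26.6% of all tested genes. FARS2 rests on 345 counts over the MLL4KO libraries and 366 over the MLL4WT libraries, fewer than any other called member.

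FARSA has the smallest adjusted p of the cytosolic genes, and the 250 bases before its RefSeq start are shown for that reason; TGATGNAA was not found in its promoter window.
FARSA, chr19:12933712-12933961, minus strand: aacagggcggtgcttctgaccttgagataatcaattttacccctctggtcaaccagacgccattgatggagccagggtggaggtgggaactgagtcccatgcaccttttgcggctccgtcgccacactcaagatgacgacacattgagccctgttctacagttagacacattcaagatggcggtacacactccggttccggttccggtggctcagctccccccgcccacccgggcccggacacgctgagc

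YARS1, the cytosolic tyrosyl-tRNA synthetase (chromosome 1, 32775237 to 32818153), had the largest fall of the cytosolic set. It was at 129, 125 and 137 CPM in MLL4KO libraries and 169.5, 186 and 184 CPM in MLL4WT libraries, 1.38-fold lower (log2 -0.47 ± 0.05, edgeR adjusted p = 2.71e-05). The groups did not overlap, and the difference was -0.51 within each run code. WARS1, the cytosolic tryptophanyl-tRNA synthetase (chromosome 14, 100333788 to 100376805), also known as a gene that interferon gamma induces, was at 129, 126 and 132 CPM in MLL4KO libraries and 156, 159 and 150.5 CPM in MLL4WT libraries. That is 1.20-fold lower (log2 -0.26 ± 0.05, edgeR adjusted p = 0.000711), and again no library of one genotype reached the range of the other.

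The genes for both lysine and glycine, which supply the cytosol and the mitochondria alike, fell slightly. KARS1 (chromosome 16, 75627474 to 75648643) was at 245, 236 and 250.2 CPM in MLL4KO libraries and 271, 284 and 274 CPM in MLL4WT libraries, 1.13-fold lower (log2 -0.18 ± 0.04, edgeR adjusted p = 0.00563). GARS1 (chromosome 7, 30594681 to 30634033) was at 203, 198 and 208 CPM in MLL4KO libraries and 229.9, 231 and 225 CPM in MLL4WT libraries, also 1.13-fold lower (log2 -0.17 ± 0.04, edgeR adjusted p = 0.00729). The groups overlapped in neither gene, but the calls were lost without MLL4KO replicate 2 (edgeR adjusted p = 0.0529 and 0.0630), and that of GARS1 also with total counts (log2 -0.11, edgeR adjusted p = 0.0532).

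QARS1, the glutaminyl-tRNA synthetase (chromosome 3, 49095932 to 49105135), was the cytosolic gene that rose, at 247, 249.6 and 250 CPM in MLL4KO libraries and 228, 228 and 219 CPM in MLL4WT libraries (1.11-fold, log2 0.15 ± 0.04, edgeR adjusted p = 0.0138). The libraries did not overlap, and the call was lost without MLL4KO replicate 2, MLL4KO replicate 3 or MLL4WT replicate 3 (edgeR adjusted p between 0.0516 and 0.0531). QARS1 belongs to the multisynthetase complex, which holds several synthetases on scaffold proteins. Of the 7 complex enzymes among the members, EPRS1 and KARS1 fell, QARS1 rose, and IARS1, LARS1, MARS1 and RARS1 did not pass the test, with a median of -0.07 on the log2 scale. The shares of 28.6% lower and 14.3% higher lie near the 26.3% and 21.2% of genes at or above the lowest member's level.

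EPRS1, which charges both glutamate and proline, shows the weight of a single library. It was at 254, 253 and 257 CPM in MLL4KO libraries and 262, 326.5 and 327.5 CPM in MLL4WT libraries (log2 -0.27 ± 0.07, edgeR adjusted p = 0.0146). The groups did not overlap, with MLL4WT replicate 1 just above the MLL4KO libraries. The call was lost when any of the 5 other libraries was left out (edgeR adjusted p between 0.0508 and 0.0606) and held without MLL4WT replicate 1. HARS1 (log2 -0.22, edgeR adjusted p = 0.0164) and SARS1 (log2 -0.21, edgeR adjusted p = 0.00998), for histidine and serine, fell with the same low MLL4WT replicate 1, at 138 and 125 CPM there against 162 to 166 and 143 to 145 CPM in the other MLL4WT libraries. The libraries overlapped in HARS1 and not in SARS1, and both calls were lost without MLL4KO replicate 2, MLL4WT replicate 2 or MLL4WT replicate 3 (edgeR adjusted p between 0.051 and 0.0907), that of HARS1 also without MLL4KO replicate 3 and with total counts or upper quartile factors. Without MLL4WT replicate 1 5 of the members that had not passed did so, all downward: AARS1, CARS1, IARS1, NARS1 and NARS2 (edgeR adjusted p between 3.95e-05 and 0.0193).

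In the mitochondrial set LARS2, the leucyl-tRNA synthetase (chromosome 3, 45388506 to 45549421), had the smallest adjusted p. It was at 54.2, 53.7 and 55.1 CPM in MLL4KO libraries and 72.4, 71.9 and 67.4 CPM in MLL4WT libraries, 1.29-fold lower (log2 -0.37 ± 0.05, edgeR adjusted p = 0.000161). AARS2, the alanyl-tRNA synthetase (chromosome 6, 44299654 to 44313326), was at 20.2, 21.0 and 18.8 CPM in MLL4KO libraries and 25.7, 28.4 and 27.7 CPM in MLL4WT libraries, 1.37-fold lower (log2 -0.45 ± 0.07, edgeR adjusted p = 0.000456). In both genes the lowest MLL4WT library lay well above the highest MLL4KO library. The promoter stretch of LARS2 is shown as that of the leading gene of this set, and TGATGNAA was not found in its window either.
LARS2, chr3:45388326-45388575, plus strand: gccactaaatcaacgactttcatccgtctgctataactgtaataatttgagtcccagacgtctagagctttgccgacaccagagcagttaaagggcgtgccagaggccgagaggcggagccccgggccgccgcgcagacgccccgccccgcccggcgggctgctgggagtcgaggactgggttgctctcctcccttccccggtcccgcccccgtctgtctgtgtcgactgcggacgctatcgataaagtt

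MARS2 (chromosome 2, 197705369 to 197708387) and CARS2 (chromosome 13, 110641412 to 110713603) charge methionine and cysteine in mitochondria. MARS2 was at 33.3, 32.3 and 33.4 CPM in MLL4KO libraries and 40.9, 41.2 and 39.2 CPM in MLL4WT libraries (log2 -0.29 ± 0.06, edgeR adjusted p = 0.00262). CARS2 was at 52.4, 48.6 and 49.2 CPM in MLL4KO libraries and 59.1, 63.4 and 55.8 CPM in MLL4WT libraries (log2 -0.25 ± 0.06, edgeR adjusted p = 0.00848). Neither overlapped, but CARS2 differed by -0.09 within one run code and -0.38 within the other, and its call was lost after removal of GC and length trends (log2 -0.13, edgeR adjusted p = 0.0804) and without MLL4KO replicate 2 or MLL4WT replicate 2. PARS2, EARS2 and HARS2, for proline, glutamate and histidine, also fell, by 0.37, 0.14 and 0.20 on the log2 scale (edgeR adjusted p = 0.0166, 0.0382 and 0.0413). The PARS2 call was lost with the DESeq2 Wald test (adjusted p = 0.0707) and without MLL4KO replicate 3 (edgeR adjusted p = 0.0812). The EARS2 and HARS2 calls were each lost under 9 of 16 alternatives.

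VARS2 and TARS2, the mitochondrial enzymes for valine and threonine, rose. VARS2 (chromosome 6, 30908242 to 30926459) was at 79.4, 71.2 and 76.5 CPM in MLL4KO libraries and 62.3, 61.8 and 64.6 CPM in MLL4WT libraries, 1.20-fold higher (log2 0.27 ± 0.06, edgeR adjusted p = 0.00253). No library overlapped, and the difference was 0.30 and 0.26 within the run codes. Of the annotated exon bases of VARS2, 22% also belong to GTF2H4, a neighbour on the same strand that fell (log2 -0.26 ± 0.07, edgeR adjusted p = 0.00994), so the sharing of reads between them is uncertain. TARS2 rose 1.18-fold (log2 0.23 ± 0.08, edgeR adjusted p = 0.0333) with overlapping libraries, since MLL4WT replicate 1, at 33.3 CPM, lay above MLL4KO replicate 2, at 32.5 CPM. The TARS2 call was lost with the DESeq2 Wald test and without MLL4KO replicate 1, MLL4KO replicate 3, MLL4WT replicate 2 or MLL4WT replicate 3 (adjusted p between 0.111 and 0.143).

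Of the 20 called members, 9 kept their call under all 16 alternatives. They were FARSA, FARSB, WARS1 and YARS1 among the cytosolic falls, AARS2, FARS2, LARS2 and MARS2 among the mitochondrial falls, and VARS2 among the rises. The alternatives reuse the libraries that gave the calls, so a kept call is not independent support. The share of all called genes that kept theirs is not given here, so no comparison with other genes is made. The 15 members that did not pass were AARS1, CARS1, IARS1, LARS1, MARS1, NARS1, RARS1, TARS1 and VARS1 in the cytosol and IARS2, NARS2, RARS2, SARS2, WARS2 and YARS2 in mitochondria, with log2 fold changes between -0.19 (WARS2) and 0.08 (LARS1).

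Each of 17 pairings set a cytosolic gene beside the mitochondrial gene for the same amino acid, by the ratio of their counts within a library, which no library scaling can change. In 5 pairs the ratios did not overlap between genotypes, lower in MLL4KO for tyrosine and valine and higher for leucine, alanine and methionine. Among single tested genes 52.5% did not overlap. How often ratios of other gene pairs fail to overlap is not given here, so the 5 pairs are a description only. The exact two-sided permutation p was 0.10 in each, the smallest possible with 3 against 3, and 0.34 after adjustment over the 17 pairs. No pair could have gone under 0.05 with this number of libraries, so the test cannot decide whether any ratio differed.

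The tyrosine and leucine pairs were furthest apart, with log2 differences of the ratio of -0.47 and 0.47. YARS2 was at 62.0, 61.1 and 62.1 CPM in MLL4KO libraries and 61.7, 62.3 and 60.2 CPM in MLL4WT libraries (log2 0.01 ± 0.05, edgeR adjusted p = 0.908), whereas YARS1 fell. The YARS1 to YARS2 ratio was 2.08, 2.05 and 2.21 in MLL4KO libraries and 2.75, 2.99 and 3.05 in MLL4WT libraries. In the leucine pair the order was the other way round, since LARS2 fell and LARS1 was at 235, 229 and 235 CPM in MLL4KO libraries and 196, 235 and 225 CPM in MLL4WT libraries (log2 0.08 ± 0.06, edgeR adjusted p = 0.285).

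The LARS1 to LARS2 ratio was 4.34, 4.26 and 4.27 in MLL4KO libraries and 2.71, 3.27 and 3.34 in MLL4WT libraries. The alanine pair resembled it, with AARS2 lower and AARS1 at 162, 162 and 161 CPM in MLL4KO libraries and 152, 195 and 178 CPM in MLL4WT libraries (log2 -0.12 ± 0.07, edgeR adjusted p = 0.207). The AARS1 to AARS2 ratio was 8.02, 7.69 and 8.58 in MLL4KO libraries and 5.91, 6.87 and 6.43 in MLL4WT libraries. The valine ratio averaged 5.59 ± 0.162 in MLL4KO and 6.84 ± 0.569 in MLL4WT, and the methionine ratio 3.61 ± 0.0826 in MLL4KO and 3.13 ± 0.0934 in MLL4WT (SD, n = 3 each).

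**Figure D2:**
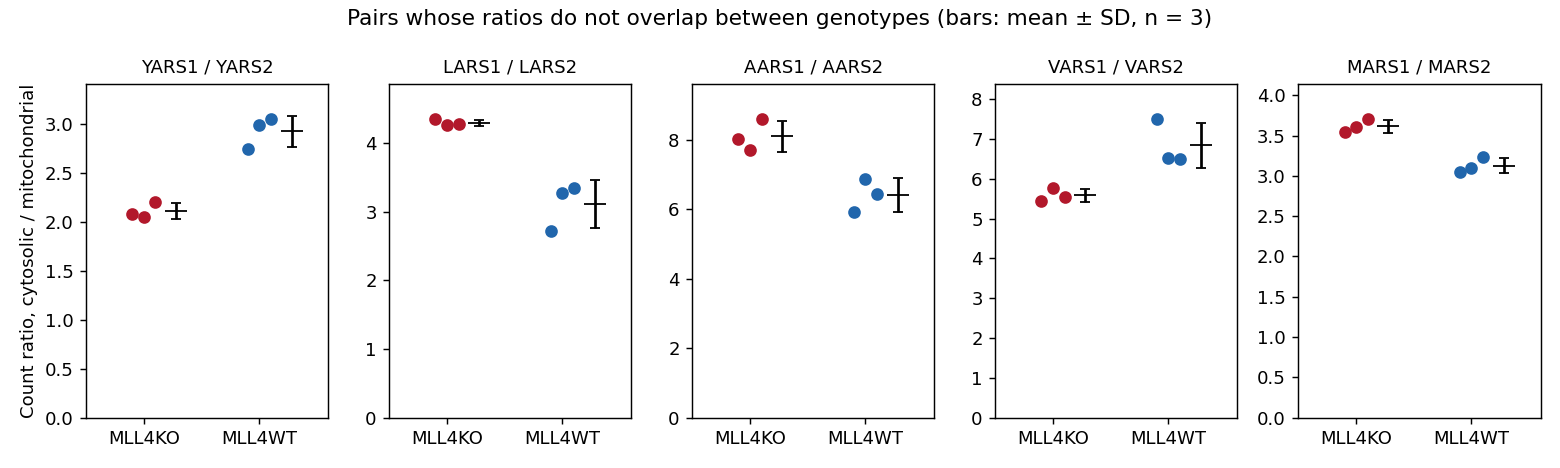
Ratio of cytosolic to mitochondrial counts in each library for the 5 pairs whose ratios did not overlap, with the 3 MLL4KO libraries left of the 3 MLL4WT libraries and the mean ± SD beside each. The YARS1 to YARS2 and VARS1 to VARS2 ratios are lower in MLL4KO and the other 3 are higher.

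In the other pairs the ratios overlapped between genotypes. Histidine gave the nearest match of 2 called genes, with HARS1 at -0.22 and HARS2 at -0.20. These genes lie head to head on chromosome 5, with RefSeq starts 85 bases apart and promoter windows that share 184 bases. Their annotated exons overlap by 437 bases on opposite strands, 11.7% of the exon bases of HARS2, and the labels do not say that the libraries kept strand, so reads in that stretch cannot be told apart. SARS2 shares 46.2% of its exon bases with an overlapping ID on the same strand that had 44 counts over all libraries. The 14 pseudogene IDs named after members held 2 counts in all, against 431931 for the members.

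**Figure D3:**
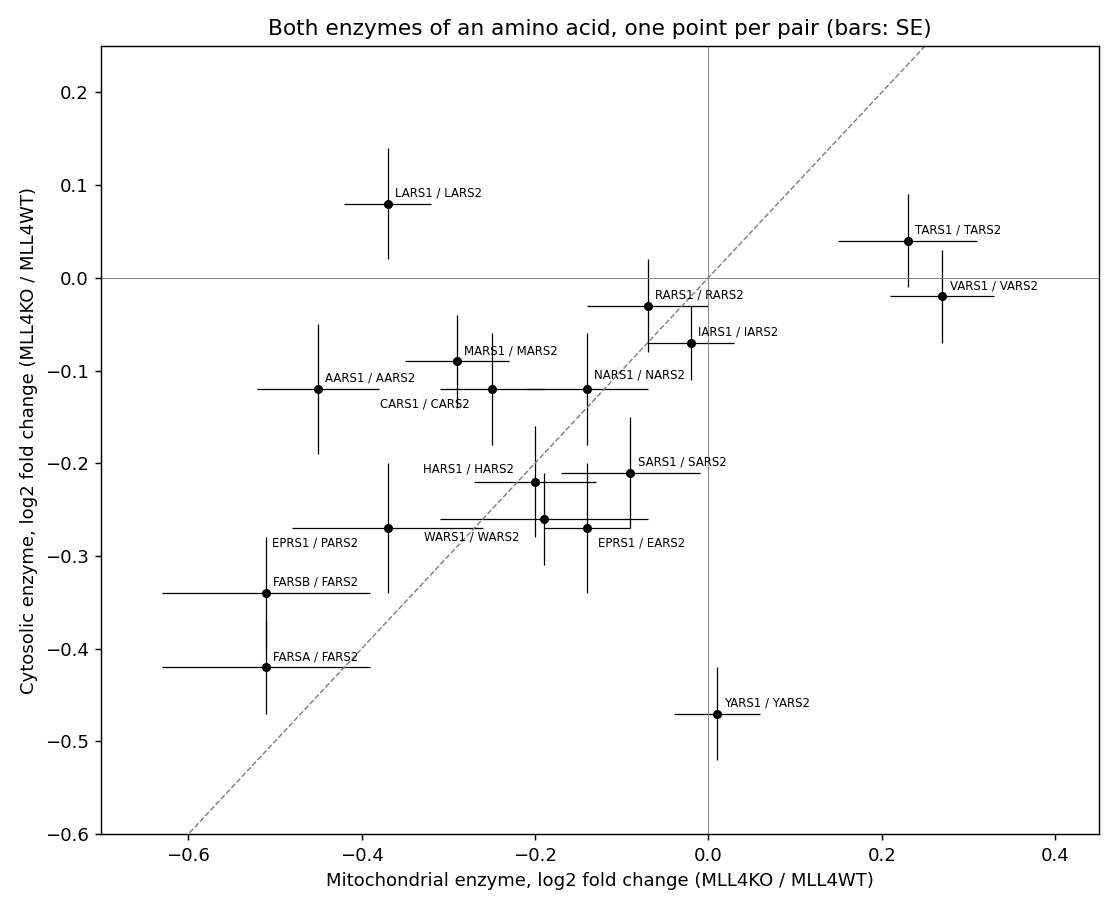
Log2 fold change (MLL4KO over MLL4WT) of the cytosolic gene on the vertical axis against that of the mitochondrial gene on the horizontal axis for the 17 pairs, with bars for the standard error and a dashed line where both are equal. YARS1/YARS2 lies far below the line and LARS1/LARS2 and AARS1/AARS2 above it, while HARS1/HARS2 and NARS1/NARS2 lie on it.

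Per kilobase of transcript, most cytosolic genes were more abundant than the mitochondrial ones. Cytosolic levels ranged from 19.7 (CARS1) to 100.7 (KARS1) CPM per kilobase in MLL4KO and from 21.3 (CARS1) to 114.3 (FARSA) in MLL4WT. Mitochondrial levels ranged from 2.88 (WARS2) to 69.1 (IARS2) CPM per kilobase in MLL4KO and from 3.28 (WARS2) to 69.8 (IARS2) in MLL4WT. IARS2 stood apart from its set in both genotypes and did not pass the test between them. The next mitochondrial gene was YARS2 in MLL4KO, at 29.1 ± 0.264 CPM per kilobase, and CARS2 in MLL4WT, at 31.7 ± 2.03 (SD, n = 3 each). FARSA and KARS1, at 114.3 ± 3.44 and 114.1 ± 2.76 CPM per kilobase in MLL4WT, could not be ordered there, whereas in MLL4KO FARSA was at 85.4 ± 2.84 and KARS1 at 100.7 ± 2.87 (SD, n = 3 each).

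The transcript of ATF4, the transcription factor behind the amino acid response, was lower, at 235, 229 and 242 CPM in MLL4KO libraries and 267, 287 and 281 CPM in MLL4WT libraries (1.18-fold, log2 -0.24 ± 0.05, edgeR adjusted p = 0.00114). These data hold no protein levels, and a link between ATF4 and the genes below was not tested. Among 19 measured members of a list of ATF4 and its other targets, 12 fell and 1 rose (63.2% and 5.26%), at a median of -0.24, where 21.6% of all tested genes fell and 19.8% rose. The amino acid transporter genes SLC7A11 (log2 -1.45 ± 0.08) and SLC3A2 (log2 -0.44 ± 0.04) had the smallest adjusted p of the falls, and PHGDH, of serine synthesis, was the member that rose (log2 0.37 ± 0.06, edgeR adjusted p = 0.000443). Of the 13 synthetases listed as ATF4 targets, 5 fell (38.5%) and none rose, at a median of -0.12, and of the 6 other cytosolic synthetases 4 fell and 1 rose, at a median of -0.20. Beside these and the next counts stand the 26.3% that fell and 21.2% that rose among genes at or above the lowest member's level. Of the 7 cytosolic genes with TGATGNAA in the window, GARS1 fell and the other 6 did not pass, with log2 fold changes between -0.17 and 0.04. This depended on the fit. With the run code term AARS1, CARS1, IARS1, MARS1 and NARS1 fell as well (edgeR adjusted p between 4.96e-06 and 0.0331), beside 27.4% of all genes lower and 23.9% higher. Without MLL4WT replicate 1, AARS1, CARS1, IARS1 and NARS1 did (edgeR adjusted p between 3.95e-05 and 0.0193), beside 25.7% lower and 23.7% higher. Of the 9 cytosolic genes whose window was found and lacked these letters, 7 fell and 1 rose. LARS1, VARS1 and YARS1 had no promoter window and stand in neither count. On the list of ATF4 and its other targets, 3 of the 4 genes with the letters fell, with log2 fold changes between -1.1 and -0.06 over the 4. The value of -1.1 ± 0.36 is that of CHAC1, a low gene with 56 counts over the MLL4KO libraries and 86 over the MLL4WT libraries. At 1.08 CPM in MLL4KO and 2.46 CPM in MLL4WT, it lies below the level of the genes behind the 26.3% and 21.2%.

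Of the 3 scaffold proteins of the multisynthetase complex, AIMP2 fell (33.3%) and the other 2 did not pass. Among genes at or above the lowest member's level 26.3% fell and 21.2% rose. AIMP2 was at 28.7, 30.1 and 28.4 CPM in MLL4KO libraries and 36.9, 38.1 and 39.5 CPM in MLL4WT libraries (1.32-fold, log2 -0.40 ± 0.06, edgeR adjusted p = 0.000392), with no overlap. On the log2 scale AIMP1 differed by -0.12 ± 0.05 (edgeR adjusted p = 0.103) and EEF1E1 by 0.00 ± 0.07 (edgeR adjusted p = 0.997).

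A list of 13 genes of cytosolic elongation and tRNA handling, which also holds tRNA export, editing and sensing genes, had 2 lower and 1 higher (15.4% and 7.69%) at a median of 0.03, both shares under those of all tested genes (21.6% and 19.8%). EEF1D, a subunit of the elongation factor 1 exchange complex, fell 1.32-fold (log2 -0.40 ± 0.04, edgeR adjusted p = 1.36e-05). EIF2AK4, the kinase GCN2 that senses uncharged tRNA, fell 1.14-fold (log2 -0.19 ± 0.05, edgeR adjusted p = 0.00979). TARS3, a second threonyl-tRNA synthetase gene, rose 1.22-fold, at 23, 24.9 and 23.1 CPM in MLL4KO libraries and 22.7, 18.8 and 18.1 CPM in MLL4WT libraries (log2 0.28 ± 0.09, edgeR adjusted p = 0.0225).

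Among 14 genes for charging and translation factors of mitochondria, 5 fell and 1 rose (35.7% and 7.14%), at a median of -0.09, beside 21.6% and 19.8% of all tested genes. MRRF, the mitochondrial ribosome recycling factor, fell 1.49-fold (log2 -0.58 ± 0.07, edgeR adjusted p = 5.94e-05). Mitochondria make glutaminyl-tRNA in 2 steps, in which EARS2 attaches glutamate and the GatCAB amidotransferase converts it. Of that complex QRSL1 fell (log2 -0.28 ± 0.06, edgeR adjusted p = 0.00324), GATC rose (log2 0.18 ± 0.05, edgeR adjusted p = 0.0103), and GATB was at 0.00 ± 0.07 (edgeR adjusted p = 0.980).

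Of 13 genes that trim tRNA ends or modify mitochondrial tRNA, 6 fell (46.2%) and none rose, at a median of -0.11, beside 21.6% and 19.8% of all tested genes. TRMU, which thiolates the wobble base of mitochondrial tRNAs, was at 65.5, 63.8 and 63.8 CPM in MLL4KO libraries and 78.6, 87.6 and 85.3 CPM in MLL4WT libraries (1.31-fold lower, log2 -0.39 ± 0.05, edgeR adjusted p = 0.000127). GTPBP3, which acts on the same base, fell 1.30-fold (log2 -0.38 ± 0.06, edgeR adjusted p = 0.000203). Their MLL4KO and MLL4WT libraries did not overlap.

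**Figure D4:**
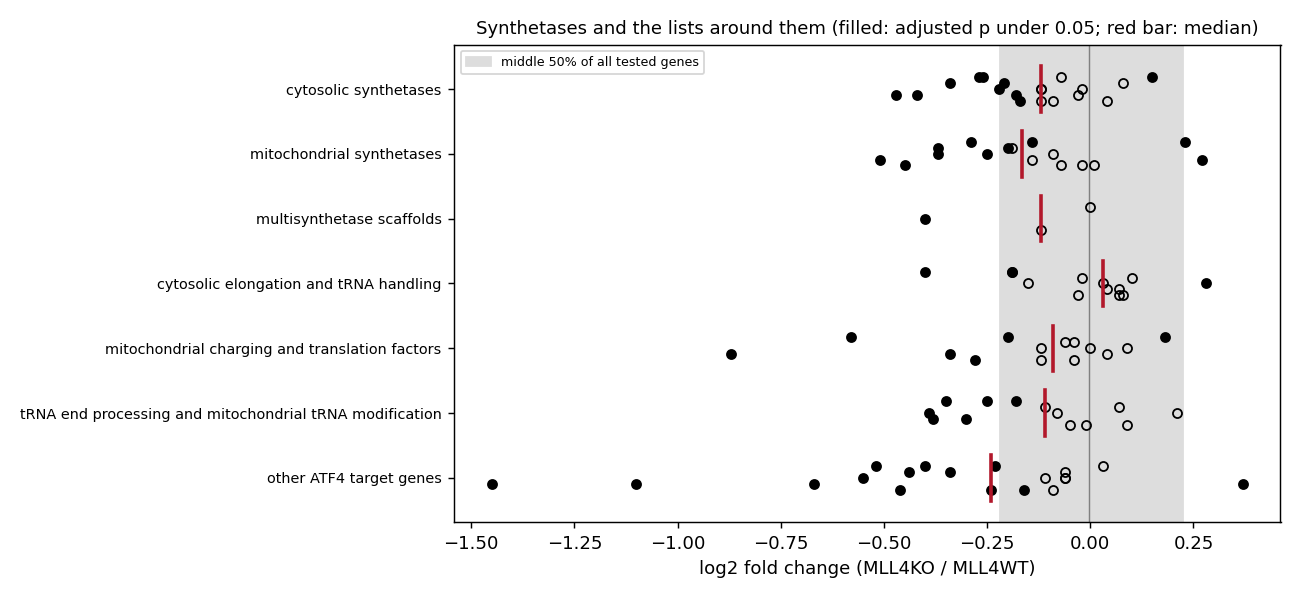
Log2 fold change (MLL4KO over MLL4WT) of each measured gene of the synthetase sets and the lists around them, with filled points for an adjusted p under 0.05, a red bar for the list median and a grey band for the middle 50% of all tested genes, between -0.22 and 0.22. The medians of both synthetase sets lie left of 0 and inside the band, and the list of other ATF4 target genes reaches furthest left.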

How the data were processed

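Expected counts per gene were deposited by the authors, as whole numbers without normalisation and with 1 column per library, per the file headers and the values. The submitters' processing notes list Salmon 1.8.0, DESeq2 1.44.0 and hg38 without saying what each was used for, and an annotation release was not given in the sources used here. Column names begin with the library names of the labels.

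Genes were kept with filterByExpr, scaled by TMM and tested with edgeR 4.0.16 (R 4.3.3) by robust quasi-likelihood, with no covariate, 4 residual degrees of freedom and Benjamini-Hochberg adjustment; standard errors came from the F statistic. The biological coefficient of variation was 5.62%. The test was checked on simulated counts, whose outcome is not given here. They held no library that stood apart from its group as MLL4WT replicate 1 did, so the check does not cover that feature. In MLL4WT replicate 1, 3 counts are 0.446 CPM. Positions and lengths are from GENCODE release 29 on GRCh38, with the transcript of the longest coding sequence; promoters are from RefSeq. Alternatives are listed in the closing section, with limma 3.58.1, DESeq2 1.42.0 and lowess at a span of 0.3 among the tools.

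Members, lists and the motif were chosen with earlier results of these data known. Genes given with every library's value by rule are KMT2D, the 6 called members of each set with the smallest adjusted p, GARS1, KARS1 and the 3 pairs furthest apart. From each other list the text names ATF4 where listed and at most 2 called genes that rose and 2 that fell, by smallest adjusted p. Of these, ATF4, AIMP2, TARS3 and TRMU are given in every library. QARS1, EPRS1, QRSL1, GATB, COL1A1 and CHAC1 were added after their values were seen. A gene that this rule names is not reported here.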

Additional observations from a re-analysis of the deposited data

How the results depend on the processing

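Over 560 combinations of a member and an alternative, 477 kept their direction and side of the threshold, 48 lost and 15 gained a call, and 20 changed sign, none of them in a called member. The alternatives were other scalings (RLE size factors, total counts, upper quartile), no filter and a stricter filter of 5 CPM in 3 libraries, the DESeq2 Wald test, limma-voom, a replicate block, a run code term, removal of GC and length trends, and leaving out each library. The median log2 fold change was -0.06 for cytosolic and -0.10 for mitochondrial genes with total counts, and -0.07 and -0.11 with upper quartile factors. It was -0.18 and -0.20 with the run code term, where 14 cytosolic genes fell, beside 27.4% of all genes lower and 23.9% higher. With upper quartile factors 3561 of all genes rose and 2475 fell. The DESeq2 Wald test gave 1 mitochondrial gene higher and 5 lower, beside 13.4% of all genes higher and 15.9% lower. With 1 library left out, 0 to 1 cytosolic genes rose and 4 to 13 fell, and 1 to 2 mitochondrial genes rose and 5 to 9 fell. Over the same fits 14.6% to 23.7% of all genes rose and 15.7% to 25.7% fell. The medians lay between -0.17 and -0.10 for the cytosolic and between -0.19 and -0.14 for the mitochondrial genes. The sign changed with total counts for KMT2D (0.05), RARS1 (0.03), VARS1 (0.04) and IARS2 (0.04), and with upper quartile factors for KMT2D (0.04), RARS1 (0.03), VARS1 (0.03) and IARS2 (0.03). It changed with the run code term for TARS1 (0.00) and VARS1 (0.05), and with GC and length trends removed for LARS1 (-0.02), TARS1 (-0.03), VARS1 (0.06) and SARS2 (0.05). Over the fits without 1 library, KMT2D ranged between -0.04 and 0.02, IARS2 between -0.06 and 0.02, VARS1 between -0.06 and 0.05, RARS1 between -0.07 and 0.01 and YARS2 between 0.00 and 0.03. The cause of these changes was not tested. Replicate numbers did not pair the libraries, with correlations of deviations of 0.0199, 0.0288 and -0.00131, and not every library correlated best with its own number. The replicate block gave 5713 calls over all genes, where 6021 were made without it. With it 9 cytosolic genes were lower and 1 higher and 6 mitochondrial genes lower and 2 higher, beside 20.8% of all genes lower and 18.5% higher. Depth was least in MLL4WT replicate 1, and 3 libraries per genotype limit each single value.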
